A study of Mus musculus with 11 samples.

Results

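Basal and luminal epithelial cells of the pubertal mammary duct were compared by ATAC-seq, in which a transposase inserts sequencing adapters into open chromatin. The comparison used 5 of the 11 libraries of the series, namely basal duct replicates 1 and 3 and luminal duct replicates 1, 2 and 3. All 153395 peaks with a count in at least 1 of these libraries were tested, of 153396 peaks with counts in the whole series. The cells of every group came from micro-dissected glands of C57BL/6 females aged 5 weeks that carried an E-cadherin-GFP reporter. After removal of cells positive for CD31, CD45 or TER-119, CD29+CD24+ cells with high GFP were taken as luminal and those with low GFP as basal, so the lineages were parted by the level of a luminal junction protein. A further basal duct sample was discarded by the study for its low number of cells. The terminal end bud (TEB) libraries, 3 basal and 3 luminal, took no part in the test and serve below as other samples of the same lineages. Whether they came from the same animals as the duct libraries is not stated.

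In the mammary duct, luminal cells line the lumen and sense hormones or make milk components, while basal cells lie on the basement membrane, contract and deposit matrix. Promoters are often open in several cell types. Enhancers, which can lie far from the genes they control, tend to be open in fewer cell types and carry the binding sites of lineage transcription factors. The nearest gene is a common guide to the target of a distal site, but it is not a measurement of contact.

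The duct libraries held 4650216 to 9986384 counts in peaks, with the basal ones deeper, and replicates of a lineage correlated at a Spearman coefficient of 0.892 to 0.954 over peaks. The labels were checked at promoter peaks. Of 24 genes of basal identity (keratins, adhesion molecules and ligands), 20 had a promoter higher in basal and 0 one higher in luminal duct cells. For 22 pan-luminal genes (simple keratins, junction genes and other epithelial genes) the counts were 0 and 12. Both lists were chosen with earlier results of these data known, so the check is not independent of them. Among all 14900 genes with a promoter peak, 43.2% were called higher in basal and 11.1% higher in luminal duct cells, which is the background of every promoter count below. In bulk samples, fewer cells of a type and less open chromatin in each cell cannot be told apart.

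Sequence is printed for the 2 distal sites per direction with the smallest p near the genes with most lineage-biased distal sites, and for the basal promoter with the smallest p. The window of the corresponding luminal promoter, that of Adarb2, lay within exons and is not shown. Each sequence is 300 bases at the peak centre, or the 238 of them outside exons for Krt14, read 5′ to 3′ on the plus strand of the GRCm38 (mm10) sequence from RefSeq. Capitals mark matches to the consensus motifs searched.

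Tns1 intron, basal, chr1:74028903-74029202: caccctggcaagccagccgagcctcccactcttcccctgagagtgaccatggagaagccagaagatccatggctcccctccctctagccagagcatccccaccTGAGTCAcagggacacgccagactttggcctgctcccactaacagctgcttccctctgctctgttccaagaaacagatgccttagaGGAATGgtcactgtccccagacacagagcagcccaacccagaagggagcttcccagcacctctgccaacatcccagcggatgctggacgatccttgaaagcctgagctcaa
Auts2 intron, basal, chr5:131558331-131558630: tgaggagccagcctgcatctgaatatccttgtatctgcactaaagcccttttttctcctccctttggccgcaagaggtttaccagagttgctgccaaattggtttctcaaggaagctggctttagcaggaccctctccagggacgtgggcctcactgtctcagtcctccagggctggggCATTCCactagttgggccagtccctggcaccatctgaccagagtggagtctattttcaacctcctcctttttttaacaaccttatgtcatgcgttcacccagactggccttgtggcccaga
Krt14 promoter, basal, chr11:100207549-100207786: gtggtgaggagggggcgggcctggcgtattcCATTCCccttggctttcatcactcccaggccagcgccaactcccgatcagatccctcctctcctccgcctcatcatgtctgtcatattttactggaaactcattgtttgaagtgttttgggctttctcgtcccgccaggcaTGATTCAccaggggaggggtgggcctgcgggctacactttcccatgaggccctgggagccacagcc
Basp1 intron, luminal, chr15:25376746-25377045: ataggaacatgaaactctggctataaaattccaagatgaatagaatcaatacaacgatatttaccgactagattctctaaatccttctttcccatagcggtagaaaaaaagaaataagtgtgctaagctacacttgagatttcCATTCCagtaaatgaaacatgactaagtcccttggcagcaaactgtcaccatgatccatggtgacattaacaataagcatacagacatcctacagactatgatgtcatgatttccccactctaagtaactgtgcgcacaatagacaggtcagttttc
Esrrg intron, luminal, chr1:187899544-187899843: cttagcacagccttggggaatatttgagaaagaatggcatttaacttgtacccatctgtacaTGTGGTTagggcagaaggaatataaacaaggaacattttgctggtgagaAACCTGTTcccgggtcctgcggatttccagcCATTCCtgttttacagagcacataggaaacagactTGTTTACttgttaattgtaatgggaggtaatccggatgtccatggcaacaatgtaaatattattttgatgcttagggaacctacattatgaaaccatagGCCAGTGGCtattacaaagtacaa

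The Tns1 site had 39.6 and 36.4 CPM (counts scaled to the size of each library) in the basal duct libraries and 1.85, 1.26 and 3.74 CPM in the luminal ones. The Auts2 site had 35.4 and 32.8 against 1.85, 1.804 and 2.701 CPM, and the Krt14 promoter 48.1 and 49.5 against 1.23, 1.44 and 0.208 CPM. The luminal sites showed the reverse. At the Basp1 site there were 0.944 and 1.295 CPM in basal against 87.04, 91.8 and 74.4 CPM in luminal duct libraries, and at the Esrrg site 0.525 and 0.432 against 52.7, 48.3 and 43.2 CPM. The groups did not overlap at any of these sites, which were chosen for their small p in the same libraries. Windows of both directions held the TEAD consensus GGAATG on either strand. The Tns1 and Krt14 windows also held the AP-1 consensus TGANTCA, and the Esrrg window held the forkhead consensus TGTTTAC beside matches for RUNX (TGTGGTT), GRHL and TFAP2. A TEAD match was found in 21.2% of all tested peaks, an AP-1 match in 25.9% and a forkhead match in 6.52%, so a match at 1 site is a description only.

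The comparison asks which chromatin sites part the lineages in the formed duct. Most peaks, 68.3%, differed. With the exact test of edgeR at an adjusted p under 0.05, 48705 peaks (31.8%) were higher in basal and 56133 (36.6%) higher in luminal duct cells. A narrower set was therefore formed of calls with a log2 fold change (basal over luminal) of at least 2 in size and CPM that did not overlap between the groups, called strongly biased here. It held 20370 peaks (13.3%) higher in basal and 37994 (24.8%) higher in luminal duct cells. Basal peaks made 34.9% of this set, but 48.8% with abundance-dependent (loess) offsets, 45.1% with offsets by GC content and 25.8% when libraries were scaled on peaks at transcription start sites.

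Strong bias was rarest at promoters. Up to 500 bp from a protein-coding transcription start site (TSS), 5.84% of 16630 peaks were strongly biased to basal and 2.92% to luminal cells, 8.76% together. Over 10 kb from any TSS, called distal here, the shares were 14.7% and 28.3% of 106496 peaks, and 30.3% and 40.0% (70.2% together) were called at any size. The direction of the weaker promoter calls depended on the scaling. Of the calls up to 500 bp, 78.5% were higher in basal cells, but 50.3% when libraries were scaled on TSS peaks alone and 49.03% with GC offsets. Scaling on TSS peaks moved the median of all peaks by -0.31 on the log2 scale, and loess offsets moved it by 0.24.

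**Figure D1:**
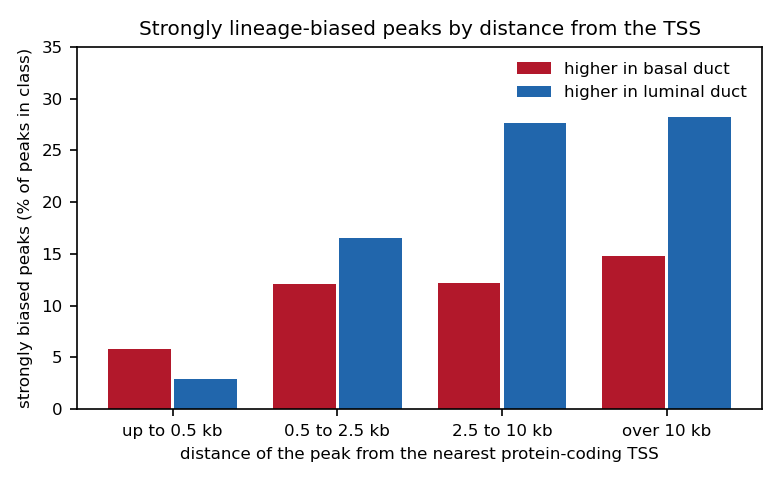
Share of peaks strongly biased to basal or luminal duct cells, in percent of the peaks in each class of distance from the nearest protein-coding TSS. The luminal share goes from 2.92% up to 0.5 kb to 28.3% over 10 kb, and the basal share from 5.84% to 14.7%.

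Distal sites of the 2 directions differed in form and sequence. Strongly basal ones had a median width of 502 bp and strongly luminal ones of 295 bp, against 322 bp for all distal peaks. The TEAD consensus, bound by the partners of YAP and TAZ, stood in 30.7% of basal and 18.5% of luminal windows, beside 22.6% of all distal ones. The forkhead consensus stood in 2.53% and 15.4%, beside 7.21%. For AP-1 the shares were 21.3% and 39.9%, beside 28.6%. Peaks with more than 50% of soft-masked repeat sequence made 1.18% of the basal and 8.59% of the luminal sites. The median GC content was 48.6% and 45.5%. Width and GC content thus moved with the direction of bias. The counts with GC offsets are given above, and the part of width was not tested.

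Genes were ordered by the number of strongly biased distal peaks whose nearest TSS was theirs. There were 271 genes with 10 or more basal and 588 with 10 or more luminal ones. Tns1, which encodes tensin, a protein that ties integrins to actin, had 43 basal ones among 75 distal peaks and 0 luminal ones. Basp1, which encodes a membrane-bound signalling protein, had 34 luminal ones of 56 and 0 basal ones. Adgrl2, a latrophilin adhesion receptor, had the highest luminal count, 50 of 121, beside 13 basal ones. Such counts follow the number of peaks near a gene, of which the median gene had 4 and the richest 123. They also follow the distance allowed. Within 100 kb of a TSS, 19 of the Tns1 sites and 5 of the basal sites of Sox9 were left.

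**Figure D2:**
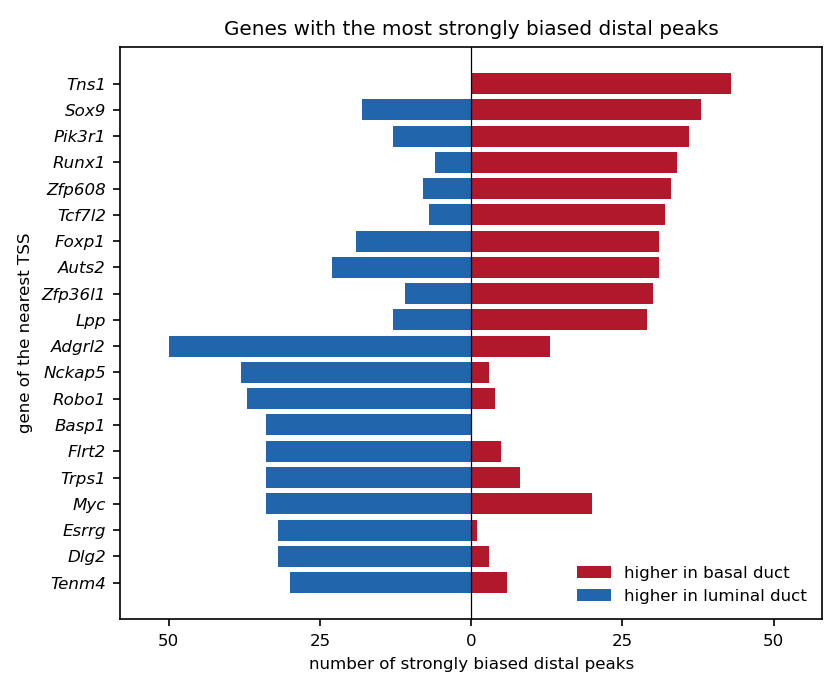
Number of strongly biased distal peaks, by direction, for the 10 genes per direction with most of them, each peak given to the gene of the nearest TSS. Tns1 has 43 basal and 0 luminal ones, Basp1 34 luminal and 0 basal, and Sox9 38 basal and 18 luminal.

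To test all distal sites of a gene together, their counts were summed per library. Of 13275 genes, 27.0% had a distal sum called higher in basal and 46.5% one higher in luminal duct cells, 73.4% together. Basal calls made 36.7% of these, 25.4% when scaled on TSS peaks, 48.4% with loess and 48.4% with GC offsets. The Tns1 sum was 594 and 559.6 CPM in basal and 121, 106 and 127 CPM in luminal duct libraries, which is 2.29 ± 0.088 on the log2 scale (basal over luminal, ± SE, n = 2 and 3, edgeR exact test, adjusted p = 1.8e-103). Values after ± are standard errors of such log2 differences throughout. The Basp1 sum was 71.04 and 63.3 against 446, 493 and 447 CPM (-2.78 ± 0.095, edgeR exact test, adjusted p = 2.7e-119). Neither pair of groups overlapped. Both genes were chosen for strongly biased distal peaks in these same libraries. Their sums, p-values and lack of overlap therefore partly follow from the choice and are descriptions. The promoters moved the same way by less. Tns1 had 21.6 and 15.8 CPM at its promoter in basal and 7.41, 5.95 and 7.48 CPM in luminal duct libraries (1.45 ± 0.24), and the Basp1 promoter had 10.2 and 7.05 against 23.5, 19.3 and 22.2 CPM (-1.303 ± 0.27). In the ratio test below, the difference between distal sum and promoter at Basp1 did not pass with GC offsets (-0.48). That of Tns1 did not pass with the mean log2 CPM of distal peaks (0.46).

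Further loci with many basal distal sites lay at genes of varied function. Runx1, a transcription factor, had 34 basal and 6 luminal strongly biased sites of 81, with distal sums of 887 and 838 against 406, 387 and 317 CPM. Tcf7l2, an effector of Wnt signalling, had 32 and 7 of 72 and a distal log2 fold change of 1.16 ± 0.075. Its promoter, with 30.1 and 27.2 against 25.3, 26.9 and 18.5 CPM, did not pass the test (edgeR exact test, adjusted p = 0.14). Both genes thus had separated distal sums, while the promoter groups lay close at Tcf7l2. Pik3r1, the regulatory subunit of PI3 kinase, had 36 and 13 of 79 (1.24 ± 0.14). Zfp36l1, which promotes mRNA decay, had 30 and 11 of 75 (1.08 ± 0.11), and Lpp, a LIM protein of focal adhesions, 29 and 13 of 101 (0.702 ± 0.044). The zinc finger gene Zfp608 had 33 and 8 of 78 (0.996 ± 0.084).

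Several loci held sites of both directions. Sox9, a transcription factor of mammary progenitors, had 38 basal and 18 luminal sites among 116. Its distal sum was 583 and 564 CPM in basal and 560.3, 567 and 460.1 CPM in luminal duct libraries, groups that overlapped (0.12 ± 0.101, edgeR exact test, adjusted p = 0.31), but it was called basal with GC offsets (0.26) and within 100 kb of the TSS (0.42). Of the basal sites 28 of 38 lay upstream of the gene, and of the luminal ones 7 of 18. Myc had 20 basal and 34 luminal sites of 111 and sums of 591 and 578 against 606, 589 and 533 CPM, a difference that did not pass (0.021 ± 0.058). The Myc sum was called luminal within 100 kb of the TSS (-0.78) and when scaled on TSS peaks (-0.29), and basal with GC offsets (0.46). Foxp1, a forkhead repressor, had 31 and 19 of 123 and a sum called basal (0.32 ± 0.032), which did not pass when scaled on TSS peaks (0.0053). Auts2 had 31 and 23 of 119, with a basal sum of 444 and 486 against 316, 287 and 265 CPM (0.68 ± 0.098). Of 1251 genes with 10 or more strongly biased distal sites, 30 had basal ones alone, 138 luminal ones alone and 1083 both kinds.

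**Figure D3:**
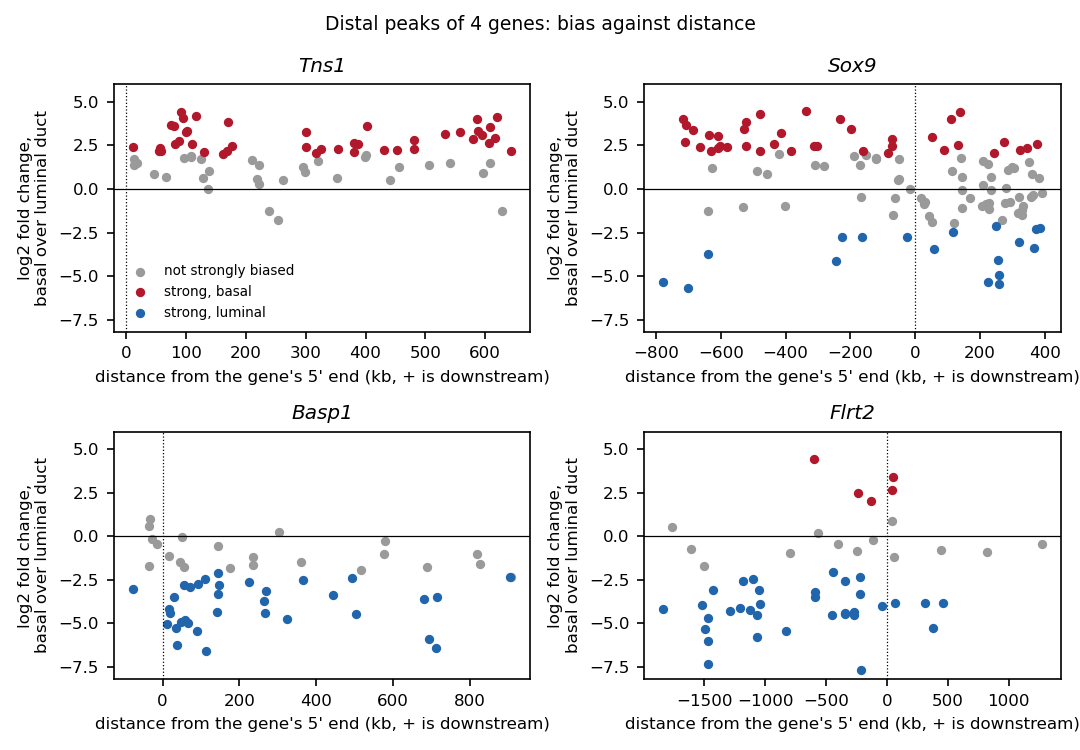
Log2 fold change (basal over luminal duct) of each distal peak against its distance in kb from the 5′ end of the gene, for Tns1, Sox9, Basp1 and Flrt2, with strongly biased peaks coloured by direction and the others in grey. Strongly biased sites point 1 way at Tns1 and Basp1, whereas 28 of the 38 basal and 7 of the 18 luminal Sox9 sites lie upstream, as do 30 of the 34 luminal Flrt2 sites.

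Among luminal loci with many distal sites, several promoters did not follow. Flrt2, a transmembrane protein of adhesion and axon guidance, had 34 luminal and 5 basal sites of 52. Its distal sum was 40.5 and 41.02 CPM in basal and 148, 173 and 163 CPM in luminal duct libraries (-1.99 ± 0.068). The promoter went the other way, with 30.01 and 32.1 CPM in basal and 8.85, 5.77 and 7.27 CPM in luminal duct libraries (2.09 ± 0.18, edgeR exact test, adjusted p = 1.6e-24). The median luminal site lay at -710.5 kb (upstream), and with sites limited to 100 kb the sum was 0.23 and not called. Esrrg, an orphan nuclear receptor, had 32 luminal and 1 basal sites of 51, 90.9% of them inside the gene, with sums of 66.2 and 70.96 against 273, 281 and 214 CPM and a basal promoter (0.71 ± 0.072) that did not pass with GC offsets (0.398) or when scaled on TSS peaks (0.39). Nckap5 had 38 luminal and 3 basal sites of 62, and Trps1, a GATA-type repressor, 34 and 8 of 76. Both likewise had promoters called higher in basal cells (0.82 ± 0.11 and 0.89 ± 0.22). Apart from the exceptions given, the strongly biased distal sites of these loci were mostly luminal and the promoter was called basal. The Trps1 sum of -0.8005 ± 0.067 was 0.13 with GC offsets and 0.018 within 100 kb of the TSS, where neither passed.

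For other luminal loci the promoter was not called. Dlg2, a synaptic scaffold gene, had 32 luminal and 3 basal sites of 57, every one inside the gene, and a promoter at -0.12 ± 0.064, called luminal when scaled on TSS peaks (-0.44) or with GC offsets (-0.43). Robo1, a receptor for Slit ligands, had 37 luminal and 4 basal sites of 71. The Robo1 promoter, at 0.046 ± 0.11, was called luminal under the same alternatives (-0.27 and -0.27). Its distal sum of -0.78 ± 0.064 turned to 0.21 with GC offsets, and that of Adgrl2, -0.603 ± 0.053, to 0.071. Tenm4, a teneurin, had 30 luminal and 6 basal sites of 70 and a promoter at 0.12 ± 0.095. The Tenm4 distal sum of -0.76 ± 0.016 was 0.52 within 100 kb.

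At some genes most distal peaks were strongly biased to 1 lineage. These genes were chosen for that share in the same libraries, so their sums and p-values are descriptions. Among genes with 10 or more distal peaks, Cxcl14, a chemokine gene, had 16 of 18 strongly basal, with sums of 269.8 and 233 CPM against 23.3, 22.9 and 28.5 CPM (3.34 ± 0.14, edgeR exact test, adjusted p = 5.3e-161). Its promoter, 54.6 and 44.2 against 4.12, 3.61 and 4.99 CPM, moved by a like amount (3.55 ± 0.197). Matrix genes stood beside it. Col4a1, a chain of basement membrane collagen, had 19 of 23 strongly basal, Prelp, a matrix proteoglycan, 10 of 13, and Eln, which encodes elastin, 8 of 10. The potassium channel gene Kcnq5 had 8 of 10, and Glod4 13 of 17, in a stretch shared with its neighbour Nxn.

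On the luminal side, Rgs7, a regulator of G protein signalling, had 11 of 11, with sums of 2.099 and 3.17 CPM in basal and 78.2, 85.1 and 98.7 CPM in luminal duct libraries (-5.08 ± 0.28). The Rgs7 promoter, 6.401 and 6.05 against 7.41, 8.297 and 10.8 CPM, did not pass (-0.498 ± 0.16) but was called luminal when scaled on TSS peaks (-0.82). Foxa1, a pioneer factor of hormone-sensing cells, had 10 of 10, with sums of 4.62 and 4.17 against 62.1, 74.1 and 60.5 CPM. The Foxa1 sites lay downstream, 11.4 to 105 kb from the gene's start. Cdk8, a kinase of the Mediator complex, had 11 of 12, with sums of 8.29 and 7.63 against 91.4, 84.4 and 76.7 CPM. Its promoter, 33.3 and 30.9 against 32.5, 29.8 and 26.6 CPM, overlapped between the groups, and was called luminal at -0.38 with GC offsets. Cxcl13, a chemokine gene, had 12 of 13 and a promoter with 2 and 1 counts in the basal and 18, 29 and 16 in the luminal duct libraries. Dera, an aldolase, had 11 of 12, and Dnah11, an axonemal dynein, 9 of 10.

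Strongly biased distal peaks also followed each other in runs with no opposite call between them and gaps of at most 50 kb. The longest basal runs had 24 such peaks over 101.7 kb at Cxcl14 and Gm3045 (chr13:56311699-56413373), 24 over 235.6 kb at Trim29 and Nectin1, a cell adhesion gene (chr9:43327035-43562634), and 22 over 130.4 kb at Glod4 and Nxn (chr11:76255384-76385778). The longest luminal runs had 23 each, over 344.1 kb at Pigk and St6galnac5 (chr3:152740626-153084691), 348.3 kb from Tmed3 to Ctsh (chr9:89692868-90041209) and 162.2 kb at the homeobox gene Msx2 (chr13:53501132-53663303). In the Msx2 run the summed level was 13.01 and 10.1 CPM in basal and 157, 165 and 125 CPM in luminal duct libraries, and 24 of the 24 peaks in the span were called luminal. Runs of 10 or more numbered 58 basal and 103 luminal ones.

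Whether distal sites differed between the lineages by more or less than the promoter was tested with limma on the log2 ratio of distal sum to promoter CPM within each library. A scaling factor common to all peaks of a library leaves this ratio as it is, but offsets that differ between peaks do not. Of 5289 genes with a promoter peak and at least 5 distal peaks, 50.8% had distal sites shifted to luminal relative to the promoter and 14.7% to basal, 65.5% together. The basal shift was called in 777 genes, and in 513 without basal duct replicate 3. The median shift was -0.56, against which single genes are read. With GC offsets the direction turned. The median shift was then 0.12, and 28.9% of genes were shifted to luminal and 36.4% to basal. With loess offsets the median was -0.28 and the shares were 41.99% and 23.9%. Calls were opposite in 749 genes with luminal distal sums and basal promoters and in 92 genes with the reverse, but in 285 and 596 with GC offsets. Of 2366 genes with a luminal distal sum, 16.1% had a luminal promoter and 52.2% one that was not called. Of 1843 genes with a basal distal sum, 61.96% had a basal promoter.

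**Figure D4:**
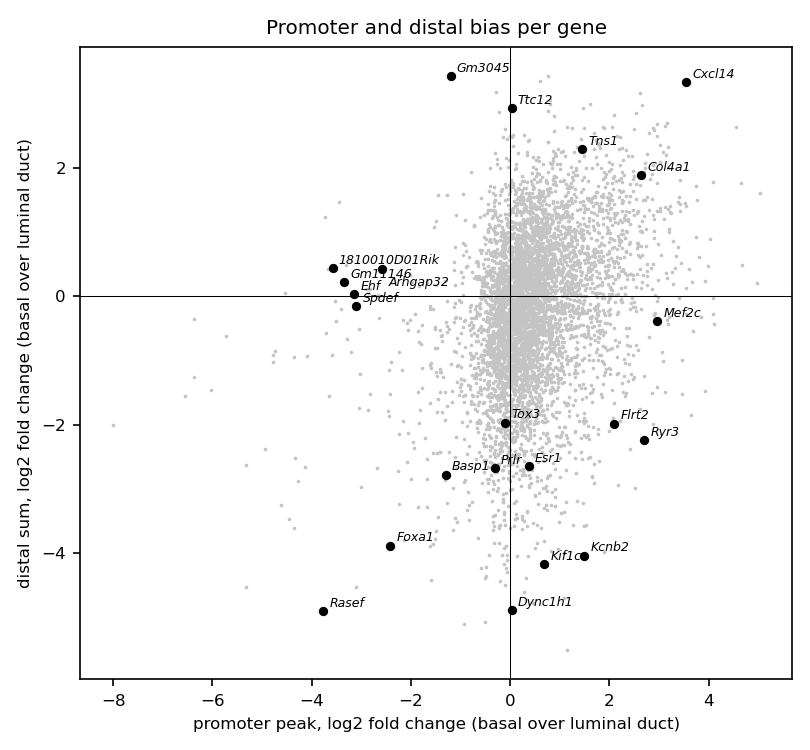
Log2 fold change (basal over luminal duct) of the distal sum and of the promoter peak, 1 point for each of 5289 genes, with named genes labelled. Esr1 lies at -2.65 for the distal sum and 0.38 for the promoter, and Ehf at 0.033 and -3.15, though the Ehf sum was called with sites over 2.5 kb (-0.29) and with GC offsets (0.55).

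The hormone receptor genes Esr1 and Prlr and the gene Tox3 were more luminal at distal sites than at the promoter. Esr1, the oestrogen receptor, had 14 strongly luminal and 0 basal sites among 20, 85.7% of them inside the gene. Its distal sum was 18.2 and 22.3 CPM in basal and 115, 136 and 126 CPM in luminal duct libraries (-2.65 ± 0.16, edgeR exact test, adjusted p = 4.5e-81). At the Esr1 promoter there were 8.395 and 10.5 CPM in basal and 7.61, 7.76 and 6.23 CPM in luminal duct libraries (0.38 ± 0.18, edgeR exact test, adjusted p = 0.16). The distal groups lay far apart and the promoter groups closer, with no overlap in either. Prlr, the prolactin receptor, had 12 luminal sites of 19 and sums of 16.4 and 15.7 against 99.8, 99.9 and 111 CPM, while its promoter groups overlapped at 8.61 and 8.64 against 7.41, 13.5 and 11.01 CPM. Tox3, a nuclear factor of luminal cells, had 20 of 31, sums of 28.02 and 33.4 against 113, 121 and 125 CPM and a promoter at -0.103 ± 0.29. In the ratio test the shift was -2.99 ± 0.19 for Esr1, -2.41 ± 0.25 for Prlr and -1.81 ± 0.26 for Tox3 (limma adjusted p = 5.1e-06, 4.9e-05 and 3.1e-04), and with GC offsets it was -2.73, -1.31 and -0.81 (limma adjusted p = 5.2e-05, 0.0045 and 0.013). The promoters of Prlr and Tox3 were called luminal when scaled on TSS peaks (-0.63 and -0.42) and with GC offsets (-0.63 and -0.61), and that of Esr1 basal with GC offsets (0.795). Gata3, a regulator of luminal fate, had 30 luminal and 7 basal sites of 75, which lay downstream up to 1251 kb away. Its distal sum was -0.55 ± 0.074, but 0.43 with GC offsets.

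**Figure D5:**
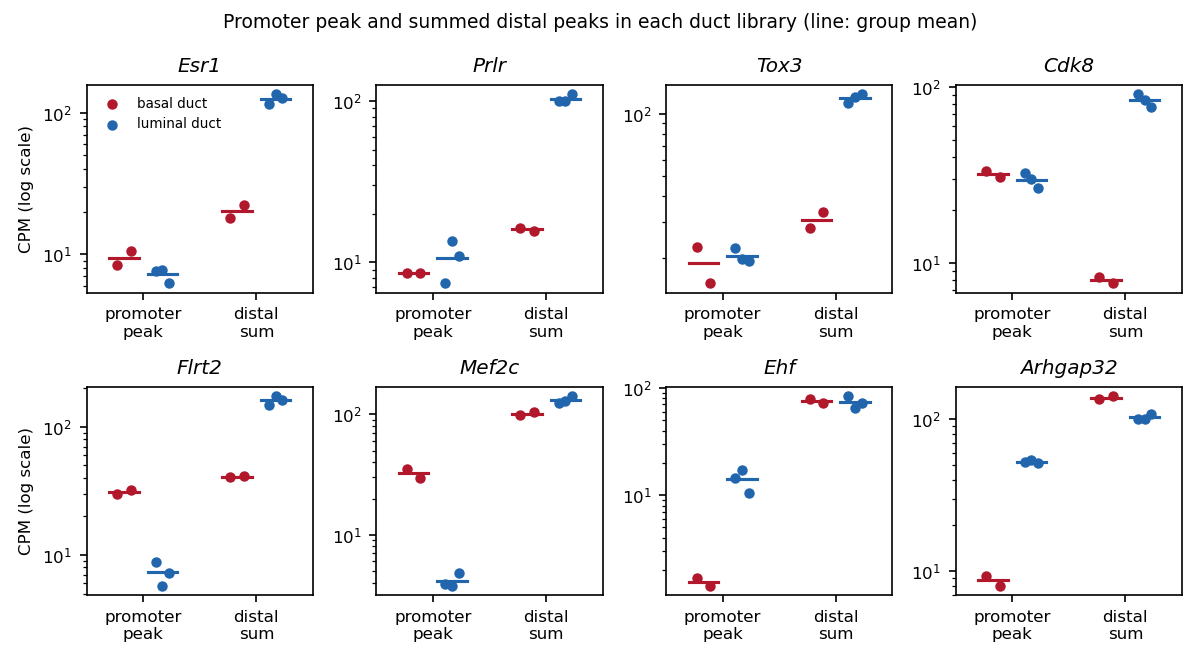
CPM (log scale) of the promoter peak and of the distal sum in each basal and luminal duct library for 8 genes. For Esr1 the distal sums are 18.2 and 22.3 CPM in basal and 115 to 136 CPM in luminal libraries while the promoters lie close, and for Ehf the promoters part and the distal sums overlap.

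The genes with the smallest p in the ratio test, among those whose promoter was not called with the distal sum, came from varied families. Dync1h1, the heavy chain of cytoplasmic dynein, had 5 of 5 sites strongly luminal, with sums of 2.52 and 1.87 against 70.4, 66.2 and 64.8 CPM. Its promoter had 30.4 and 29.7 against 31.9, 29.9 and 26.4 CPM, which overlapped, and was called luminal at -0.47 with GC offsets. The kinesin gene Kif1c had 5 of 5 and a basal promoter (0.69 ± 0.101) that did not pass with GC offsets (0.19). At Kcnb2, a potassium channel, the distal sum was -4.04 ± 0.17, which did not pass within 100 kb of the TSS (-0.74), and the promoter 1.498 ± 0.17. Ryr3, an intracellular calcium channel, had -2.24 ± 0.14 and 2.704 ± 0.27. In the basal direction, Ttc12 had 5 of 6 sites strongly basal, sums of 43.2 and 42.5 against 5.14, 4.87 and 6.86 CPM and a promoter with 14.1 and 12.2 against 12.1, 12.6 and 14.1 CPM. Gm3045, next to Cxcl14, had 8 of 9 and a luminal promoter (-1.199 ± 0.071). For Arhgap32, a GTPase activator, the promoter carried the shift, with 9.34 and 8.06 CPM in basal and 52.1, 53.6 and 51.7 CPM in luminal duct libraries, beside a distal sum of 0.42 ± 0.049. The same held for 1810010D01Rik (promoter -3.58 ± 0.19, distal sum 0.44 ± 0.14) and Gm11146 (-3.35 ± 0.16 and 0.22 ± 0.032, the latter -0.094 when scaled on TSS peaks).

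Transcription factors known in basal cells had basal promoters. Of 11 with a promoter peak, 10 were higher in basal and 0 in luminal duct cells, and the median log2 difference was 2.34, beside 0.301 over all promoters. Of their 306 distal peaks, 29.1% were strongly basal and 13.1% strongly luminal, beside 14.7% and 28.3% of all distal peaks. Trp63, the p63 gene of basal epithelia, had 15 basal and 3 luminal sites of 32 and sums of 217 and 196 against 78.6, 84.8 and 78.3 CPM. Its promoter peak was low throughout, with 18 and 14 counts in basal and 1, 1 and 1 in luminal duct libraries. Id4, an inhibitor of helix-loop-helix factors, had 25 and 4 of 43, with sums of 215 and 225 against 78.2, 68.002 and 76.1 CPM. Bcl11b, a zinc finger factor, had 12 and 2 of 44. Mef2c, a factor of muscle gene expression, differed from these, with 35.5 and 29.5 CPM at the promoter in basal and 3.91, 3.79 and 4.78 CPM in luminal duct libraries (2.97 ± 0.16) but a luminal distal sum (-0.39 ± 0.068), which was 0.57 with GC offsets. Twist2, a mesenchymal factor, also had a basal promoter (2.36 ± 0.15) and a luminal distal sum (-0.76 ± 0.085).

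Transcription factors known in luminal cells had promoters of either direction, with a lower share of basal and a higher share of luminal ones than among all promoters. Of 17 promoters, 3 were higher in basal and 6 in luminal duct cells, beside 43.2% and 11.1% of all promoters. The median was 0.054, beside 0.301 over all promoters, and -0.26 beside -0.016 when scaled on TSS peaks. The Gata3 promoter was among the basal ones. It did not pass when scaled on TSS peaks (0.048), with loess offsets (0.25) or with GC offsets (0.046). Of 407 distal peaks, 13.8% were strongly basal and 34.2% strongly luminal, beside 14.7% and 28.3% of all distal peaks. Ehf, an epithelial ETS factor, had 1.68 and 1.44 CPM at its promoter in basal and 14.6, 17.1 and 10.4 CPM in luminal duct libraries (-3.15 ± 0.23), whereas its distal sum did not pass (0.033 ± 0.12). Spdef, another ETS factor, had 0.944 and 0.432 against 6.79, 6.85 and 5.403 CPM at the promoter and a distal sum of -0.15 ± 0.089 that did not pass either. The Ehf sum was called luminal with sites over 2.5 kb from a TSS (-0.29) but basal with GC offsets (0.55), and the Spdef sum luminal with GC offsets (-0.39) and when scaled on TSS peaks (-0.46). Hes1, a Notch target, had a luminal promoter (-0.61 ± 0.33), which was -0.298 without basal duct replicate 3. Its basal distal sum (0.27 ± 0.061) was -0.043 when scaled on TSS peaks. That sum did not pass with GC offsets (0.14), with sites over 2.5 kb (0.17) or within 100 kb of the TSS (0.13).

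Among the genes of basal identity, 131 of 359 distal peaks (36.5%) were strongly basal and 45 (12.5%) strongly luminal, beside 14.7% and 28.3% of all distal peaks. Nrg1, an ErbB ligand, had 21 and 10 of 58, with sums of 298 and 298 against 131, 136 and 167 CPM. Of the Notch ligands, Dll1 had 13 basal and 0 luminal sites of 23, and 48.9 and 36.99 against 6.996, 8.48 and 6.65 CPM at its promoter. Jag1 had 18 and 11 of 52. Its distal sum was basal (0.46 ± 0.094) but luminal within 100 kb (-0.91), and its promoter did not pass (-0.16 ± 0.091) but was called luminal when scaled on TSS peaks (-0.48). Dll1 was thus basal throughout and Jag1 mixed.

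Contractile and matrix genes were basal at most promoters. Of 21 contractile promoters 16 were higher in basal and 1 in luminal duct cells, and of 24 matrix promoters 21 and 0, with medians of 1.33 and 1.79. Of 227 contractile distal peaks 64 (28.2%) were strongly basal and 20 (8.81%) strongly luminal, and of 404 matrix ones 146 (36.1%) and 42 (10.4%), beside the same 14.7% and 28.3%. Mylk, the myosin light chain kinase, had 47 and 34 counts at its promoter in basal and 1, 1 and 0 in luminal duct libraries, and 10 basal and 2 luminal sites of 29, every one inside the gene. Cald1, an actin-binding protein, had 12 and 2 of 26. Tpm1, a tropomyosin, was the contractile gene with a luminal promoter peak, 15.5 and 15.98 against 28.8, 22.2 and 23.7 CPM, and had a basal distal sum (0.52 ± 0.097), which did not pass when scaled on TSS peaks (0.22). Synpo2, which binds actin bundles, had a basal promoter (1.204 ± 0.36) and a distal sum that did not pass (0.18 ± 0.079) but was called basal with GC offsets (0.69). In the matrix list, Thbs1, thrombospondin, had 22 and 4 of 58, Tnc, tenascin, 14 and 4 of 43, and Col18a1 13 and 1 of 21. Col17a1, a hemidesmosome collagen, had 9.02 and 9.64 CPM at its promoter in basal and 0, 0.541 and 1.04 CPM in luminal duct libraries, while its distal sum of -0.03 ± 0.17 did not pass and was 0.37 with loess offsets. Col4a1 shares its promoter peak with Col4a2, so that peak is counted for both.

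Promoters of fibroblast and endothelial markers were also higher in basal duct cells, while other lists were mixed. Of 10 fibroblast genes 6 had a promoter peak, and 6 of these were higher in basal duct cells, with summed promoter levels of 161 and 145 CPM in basal and 26.1, 27.4 and 28.3 CPM in luminal duct libraries, while Col1a1, Col3a1, Lum and Dpt had none. Of 10 endothelial genes 4 had one, 4 higher in basal, with sums of 37.04 and 39.4 against 8.64, 16.96 and 16.2 CPM, while Pecam1, Cdh5, Tek, Tie1, Emcn and Eng had none. Basal duct libraries were thus the higher ones for both lists. Of 8 immune genes 2 had a promoter peak (10.4 and 12.4 against 13.8, 13.5 and 12.1 CPM), and Ptprc had none. Pericyte promoters summed to 33.3 and 28.5 against 16.7, 16.96 and 14.96 CPM, with 2 of 4 called basal. Of nerve sheath promoters 3 of 4 were basal, of adipocyte ones 1 of 2 and of differentiated keratinocyte ones 1 of 2. Housekeeping promoters were basal in 4 of 14, with a median of 0.14, or -0.18 when scaled on TSS peaks. The part of other cells in the basal calls was not tested.

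Luminal gene groups differed among themselves. Mature luminal genes, which serve hormone sensing, had 9 of 17 promoters higher in luminal and 4 higher in basal duct cells, and 48.9% of 227 distal peaks strongly luminal, beside 28.3% of all. Areg, an EGF receptor ligand, had 13 luminal and 1 basal sites of 18. Rasef, of the Rab GTPase family, had 8 of 8 luminal, with sums of 1.47 and 2.16 against 48.4, 55.9 and 56.9 CPM. Fgfr2, a receptor for fibroblast growth factors, had 16 basal and 16 luminal sites of 67, and Cxcl15, a chemokine gene, a luminal promoter (-3.37 ± 0.41) with a distal sum that did not pass (0.25 ± 0.22) but was called basal with GC offsets (0.84). Pan-luminal genes had 83 of 183 distal peaks (45.4%) strongly luminal and 3.83% strongly basal, beside 28.3% and 14.7% of all. Of the 83, 34 were at Basp1, a gene also named above for its count of luminal distal sites. Cdh1, which encodes E-cadherin, the protein of the sort, had sums of 85.8 and 92.1 against 182, 179 and 156 CPM. Cd24a, also used in the sort, had a luminal distal sum (-0.45 ± 0.074) and a promoter that did not pass (0.101 ± 0.18) but was -0.403 and called luminal with GC offsets. Esrp1, an epithelial splicing factor, had 8 luminal sites of 10 and 61.5 and 44.5 against 66.5, 74.5 and 57.8 CPM at a promoter that did not pass (-0.32 ± 0.26) but was called luminal when scaled on TSS peaks (-0.64). The tight junction genes Cldn7 (-1.898 ± 0.104) and Cldn8 (-2.56 ± 0.34) had luminal promoters.

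Luminal progenitor and milk genes had promoter shares near those of all genes. Of 12 promoters, 6 were higher in basal and 1 in luminal duct cells, beside 43.2% and 11.1% of all promoters. Of 193 distal peaks 51 (26.4%) were strongly basal, 38 of them at Sox9, and 42 (21.8%) strongly luminal, beside 14.7% and 28.3% of all distal peaks. Kit, the stem cell factor receptor, had 10 luminal and 0 basal sites of 16, sums of 21.3 and 27.9 against 51.9, 41.7 and 45.1 CPM and a promoter that did not pass (0.46 ± 0.28) but was called basal with loess offsets (0.59). Plet1 had the luminal promoter, 10.4 and 9.07 against 27.8, 23.1 and 21.2 CPM. Tspan8, a tetraspanin gene without a promoter peak, had a distal sum of -0.53 ± 0.075, which was 0.28 with GC offsets. Itgb3, an integrin chain, and Lcn2, an iron-binding secreted protein, had basal promoters (1.75 ± 0.089 and 1.77 ± 0.34).

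Several of the promoters with the smallest p belonged to genes with few distal sites. Beside the keratins Krt14 and Krt17, the basal ones were those of Gm10354, Sh3tc2, Chil1 and Ak1, an adenylate kinase. Ak1 had 75.03 and 66.2 CPM in basal and 6.58, 7.22 and 5.61 CPM in luminal duct libraries, and no distal peak was nearest to it. Chil1, a chitinase-like secreted protein, had a basal promoter (4.07 ± 0.18) and a luminal distal sum over 2 peaks (-1.42 ± 0.22). The luminal promoters were those of Adarb2, Rasef, Arhgef38, Tnip3, Muc16 and Stx19. Adarb2, of the RNA-editing deaminase family, had 1.05 and 1.15 CPM in basal and 47.7, 43.5 and 41.97 CPM in luminal duct libraries. Arhgef38 had 12 of 14 distal sites strongly luminal, and Muc16, a membrane mucin, 6 of 6.

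The same peaks were read in the TEB libraries, which the duct test had not used but which may share animals with the duct libraries. Of the 15708 strongly basal distal peaks, 94.7% had the same sign between basal and luminal TEB cells and 57.8% were called in that direction, and the median log2 difference was 1.74, beside 2.68 in ducts. Of the 30108 strongly luminal ones, 92.2% had the same sign and 54.3% were called, with medians of -1.802 and -3.36. Opposite calls made 0.0573% and 1.21%. Over all tested peaks 77.1% had the same sign, 33.8% were called in the same direction in TEBs and 3.61% in the opposite one. Of peaks with counts, 37.4% were called in either direction. The strongly biased sets were chosen for large duct differences, so their duct and TEB medians are not like for like. The lineage difference itself differed between ducts and TEBs for 28.1% of distal sums (interaction, edgeR quasi-likelihood test). The TEB fits and the interaction were run under the main scaling alone, with no term for shared animals. The Itgb3 sum went from 1.62 ± 0.031 in ducts to -0.0034 in TEBs, an interaction of 1.69 (edgeR adjusted p = 1.2e-05). That of Rgs7 was -2.68 in TEBs, an interaction of -2.33 (edgeR adjusted p = 2.6e-05). For Esr1 it was -1.95, and the interaction of -0.62 did not pass (edgeR adjusted p = 0.064).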

How the data were processed

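ATAC-seq was performed by the study on sorted mammary cells, with 2 basal and 3 luminal duct libraries and 6 TEB libraries. Per the labels and the methods of the study, the authors aligned the reads by Bowtie2 (the labels name version 2.3.4.3) to the mm10 build and discarded duplicates. MACS2 was run once per population, over its replicates pooled. Overlapping peaks were merged, those in blacklisted regions dropped, and the authors deposited the raw read count of each library in each merged peak. Peaks called on pooled replicates favour sites open in any 1 population, and the merged peaks differ in width. Neither the use of a transposase offset on reads nor the number of mice per library is stated for these libraries. The p-values therefore concern these samples only. In the exact test the dispersion of each peak was drawn towards that of other peaks (prior degrees of freedom 99.1). A p-value thus need not follow the standard error printed with it.

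Counts were tested in R 4.3.3 with the exact test of edgeR 4.0.16 (TMM factors, tagwise dispersions of the duct libraries, every peak with a count, Benjamini-Hochberg adjustment, threshold 0.05), as the methods of the study describe for pairs of populations. Standard errors are those between samples of log2 CPM. TSSs were the 41421 of protein-coding genes in the GENCODE basic annotation of GRCm38. A promoter peak was the one within 500 bp of a TSS of the gene with the highest mean log2 CPM. Distal peaks, over 10 kb from any TSS, went to the gene of the nearest TSS. The ratio test used limma 3.58.1 with a prior count of 2. The 12 motifs were searched on both strands of 300-base windows. TEB libraries were tested in the same way, and the interaction over 11 libraries with the quasi-likelihood test. The alternatives, DESeq2 1.42.0 among them, are given in the closing section. Scripts were tested on simulated counts in which few peaks were changed. In the data most peaks differed, so this checks the code and not the calls.

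Members, gene lists and tests were chosen with earlier results of these data known. Genes were named by rule: the 10 per direction with most strongly biased distal peaks, the 6 with the largest share of them among genes with at least 10 distal peaks, the 5 with the smallest p in the ratio test whose promoter was not called with the distal sum, the 3 longest runs, the 4 members of each of 8 lists with most strongly biased distal peaks and the 2 with the largest promoter change, and the 6 promoters with the smallest p. Of the genes the rule named, 1 is not reported here.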

Additional observations from a re-analysis of the deposited data

Results flagged for a closer look

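For the 20 genes with most strongly biased distal peaks, the lineage difference of the distal sum was compared between ducts and TEBs in an edgeR quasi-likelihood model over all 11 libraries. The difference between the 2 structures passed for 12 of them, beside 28.1% of all 13275 distal sums tested. These genes were chosen for their duct values, so the count is a description. The model was run under the main scaling alone, so its dependence on scaling was not tested. Some duct sums among these genes changed sign under other settings, as given above and below.

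Tns1 had a log2 fold change (basal over luminal) of 2.29 in ducts and 1.09 in TEBs, an interaction of 1.27 (edgeR adjusted p = 1.5e-05). At Sox9 the values were 0.12 and -0.72, with an interaction of 0.90 (2.0e-04). For Pik3r1 the values were 1.24 and 0.20, with an interaction of 1.10 (7.4e-05). At Runx1 the values were 1.22 and 0.42, with an interaction of 0.87 (0.0014). For Tcf7l2 the values were 1.16 and 0.51, with an interaction of 0.72 (0.0019). At Zfp36l1 the values were 1.08 and 0.32, with an interaction of 0.82 (0.0012). For Lpp the values were 0.70 and 0.086, with an interaction of 0.68 (0.0022). The sum of Sox9 was not called in ducts and was called luminal in TEBs.

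Among the luminal genes, Robo1 had a log2 fold change (basal over luminal) of -0.78 in ducts and -0.21 in TEBs, an interaction of -0.50 (edgeR adjusted p = 0.023). At Basp1 the values were -2.78 and -2.04, with an interaction of -0.68 (0.017). For Flrt2 the values were -1.99 and -0.45, with an interaction of -1.47 (9.1e-06). At Esrrg the values were -1.90 and -1.20, with an interaction of -0.64 (0.015). For Dlg2 the values were -1.53 and -0.72, with an interaction of -0.75 (0.0025). All 5 kept the luminal sign in TEBs, where the Robo1 sum was not called.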

How the results depend on the processing

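Of 174 alternative values of the 12 counts reported, 162 stayed within 1.5 times the main count. Near promoters (up to 500 bp) the direction depended on scaling: 4595 peaks were higher in basal and 4536 in luminal duct cells with TMM factors from TSS peaks, and 4617 and 4800 with GC offsets, against 7289 and 2002. A log2 fold change of at least 1 gave 39863 strongly basal peaks, and one of at least 3 gave 6565 basal and 23540 luminal ones. The ratio of distal sum to promoter was also formed with loess and with GC offsets, an alternative chosen after seeing the data. Distal sites were then more basal than the promoter in 1265 and 1923 genes (main 777) and more luminal in 2221 and 1530 (main 2686). Leaving out 1 library at a time gave 1197 to 2068 luminal peaks up to 500 bp and 513 to 794 genes with distal sites more basal than the promoter (main 777), the lowest of both without basal duct replicate 3. It gave 20127 to 21855 strongly basal and 35047 to 37509 strongly luminal peaks. A lone basal library is assumed to vary like the luminal ones.

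Whether replicate numbers pair the libraries was not settled. The deviations of same-numbered libraries correlated at 0.015 and 0.022. The deviations of the basal duct libraries from their mean mirror each other, so these values can neither show nor exclude pairing. With the number as a block, 44824 peaks were basal and 53862 luminal, 20176 and 37660 strongly so, and 3372 and 6037 distal sums. The DESeq2 Wald test called 38025 and 45944 peaks.

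For the single genes named, 3578 of 3812 alternative values kept direction and call, 90 lost the call, 76 gained one, 24 counts of sites moved by more than 1.5 times and 44 changed sign. With GC offsets the changed log2 values were Pik3r1 promoter -0.0025, Adgrl2 distal 0.071, Robo1 promoter -0.27, Robo1 distal 0.21, Trps1 distal 0.13, Cdk8 promoter -0.38, Dync1h1 promoter -0.47, Mef2c distal 0.57, Gata3 distal 0.43, Tspan8 distal 0.28, Fgfr2 promoter -0.045, Cd24a promoter -0.40 and Stx19 distal 1.27. With TMM factors from TSS peaks they were Robo1 promoter -0.27, Myc distal -0.29, Gm11146 distal -0.094 and Hes1 distal -0.043, and with loess offsets Col17a1 distal 0.37. With distal sites up to 100 kb they were Flrt2 distal 0.23, Trps1 distal 0.018, Myc distal -0.78, Tenm4 distal 0.52, Gm11146 distal -0.43, Mef2c distal 0.13 and Jag1 distal -0.91, and with sites over 2.5 kb Ehf distal -0.29, Col17a1 distal 0.87 and Chil1 distal 0.016. With the mean log2 CPM of distal peaks, Rasef distal minus promoter 0.12. With GC offsets the distal minus promoter values that changed sign were Sox9 0.54, Auts2 0.58, Adgrl2 0.75, Robo1 0.49, Dlg2 0.080, Col4a1 0.083, Kcnq5 1.31, Foxa1 0.43, Gata3 0.39, Nrg1 1.24, Tnc 1.20, Fgfr2 0.66, Areg 0.96, Rasef 0.83 and Cd24a 0.15. The cause of each change was not tested. With 2 basal libraries, and basal libraries deeper than luminal ones, low luminal-side values such as the Mylk and Trp63 promoters rest on few counts.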
